A study of Mus musculus with 10 samples.

Results

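Plagl1 and the imprinted growth genes linked to it were followed in BMEL cells, a mouse embryonic liver line able to differentiate along the hepatocyte or the bile duct lineage. The group holds 10 genes: Plagl1, Igf2, H19, Igf2r, Grb10, Dlk1, Meg3, Cdkn1c, Peg3 and Mest. Plagl1 was chosen by its measured decrease in these same arrays, and the other members were taken for their known place beside it in the imprinted gene network. All values of Plagl1 between the groups are therefore given as a description, with no test. Of the 10 members, 9 had at least 1 probe set whose annotation names that gene alone, among 18193 such genes on the array. H19 had none and was not analysed here. A total of 7 members reached the level set for testing, a mean of 4.56 on the log2 scale below which 40% of probe sets fall, among 12633 genes tested. Dlk1 and Mest lay under it.

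The cells of every array had received an oligonucleotide built of locked nucleic acid, delivered with Oligofectamine. In 5 arrays, called antisense here, the oligonucleotide was directed against miR-30a, and in 5 arrays it was a scrambled control. Total RNA was amplified, labelled with biotin and hybridised to single-colour Affymetrix arrays. Neither dose nor time after transfection is stated in the labels. Nor do they say that the replicates were separate cultures, so the p-values reflect the spread among these arrays alone, which may be technical. In bulk RNA of this kind, fewer cells that express a gene and less RNA per cell cannot be told apart.

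An imprinted gene is transcribed mainly from the copy inherited from 1 parent, and many such genes set the pace of fetal growth. Plagl1, also called Zac1, encodes a zinc finger transcription factor expressed from the paternal copy, and it is known to regulate other imprinted genes, Igf2, H19 and Cdkn1c among them. In fetal liver several of these genes are abundant and are shut down after birth. Paternally expressed members such as Igf2, Dlk1, Peg3 and Mest often favour growth, and maternally expressed ones such as Igf2r, Grb10, Cdkn1c and the noncoding RNAs H19 and Meg3 often restrain it.

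The antisense oligonucleotide was directed against the first microRNA below. It is shown with 3 other mature mouse microRNAs of the same seed, those that the RefSeq table used here lists (build GRCm38.p6), because an antisense oligonucleotide may also pair with close relatives. The capitals mark the seed, bases 2 to 8, by which a microRNA recognises its targets. The table is not complete, so these need not be all the microRNAs with this seed. miR-30a-5p lies at chr1:23272274-23272295 on the plus strand.
miR-30a-5p: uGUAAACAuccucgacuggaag
miR-30e-5p: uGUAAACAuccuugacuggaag
miR-30c-5p: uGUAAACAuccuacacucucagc
miR-384-5p: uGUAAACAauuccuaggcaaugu
The sequence of miR-30e-5p differs from that of miR-30a-5p at 1 base. Neither the oligonucleotide's own sequence nor the 3′ UTRs of the imprinted genes were used here.

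The labelled cell type was checked against its markers. All 11 liver epithelial markers with a probe set reached the level, among them the keratin genes Krt8, Krt18 and Krt19 and the hepatocyte regulator Hnf4a. Alb, at 4.73 in scrambled arrays, was just above it. Of the markers of other cell types, 4 of 9 mesenchymal and stellate, 4 of 7 endothelial and 4 of 7 blood and macrophage genes lay under it, Col1a1, Pecam1 and Ptprc included. The other 5, 3 and 3 reached it. Their highest scrambled means were 5.65 for Des, 8.27 for Flt1 and 6.41 for Csf1r, beside 6.33 for the liver marker Afp. The markers thus do not separate the cell types fully. Of the 3 blood and macrophage genes tested, Cd68 rose by 0.39 (limma adjusted p = 0.0176), while Cx3cr1 was at 0.07 and Csf1r at 0.05. The Cd68 call was lost without antisense replicate 3 (adjusted p = 0.0523) or antisense replicate 4 (adjusted p = 0.0551), and with the 60% filter Cd68 was not tested. The liver gene Ttr was at -1.17 (adjusted p = 0.0574, or 0.000812 with the replicate number as a block). It passed with the 60% filter and without antisense replicate 5 (adjusted p = 0.0368) or scrambled replicate 2 (adjusted p = 0.0469). Over all 11 liver epithelial markers, 3 changes were above 0 and 8 below, with a median of -0.01. Sox9 was at 0.17 (limma adjusted p = 0.0662), Afp at 0.10 (limma adjusted p = 0.481) and Hnf4a at -0.02. The part of these markers in the results below was not tested. The array medians lay between 5.21 and 5.24.

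Plagl1 had 3 probe sets, 2 of them above the level. The mean was lower with the antisense oligonucleotide on these 2, and the groups were apart on 1 of them. The main probe set, of the type _x_at and the one with the highest mean over the 10 arrays, read 6.47, 6.23, 6.18, 6.29 and 6.02 in scrambled replicates 1 to 5. It read 5.92, 5.31, 5.76, 5.44 and 5.92 in antisense replicates 1 to 5. The groups did not overlap, so the antisense array was necessarily the lower in all 5 same-numbered pairs. The gap was 0.10 in replicate 5 and up to 0.92 in replicate 2. The mean went from 6.24 ± 0.16 (SD, n = 5) to 5.67 ± 0.28 (SD, n = 5), a change of -0.57 (SE 0.12) or 1.48-fold. Antisense replicates 2 and 4 were the lowest of the 10 arrays. With 1 array left out, the change lay between -0.63 and -0.48.

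The second Plagl1 probe set, of the type _at, was also above the level in all 10 arrays. It read 5.51, 5.31, 5.33, 5.31 and 5.38 in scrambled arrays and 5.16, 5.47, 5.11, 5.37 and 5.28 in antisense arrays. The groups overlapped, the change was -0.09 (SE 0.069), and antisense replicates 2 and 4, the lowest on the main probe set, were the highest antisense arrays here. The third probe set, of the type _a_at, had values from 2.83 to 3.20, under the level in all 10 arrays, and its change was 0.02 (SE 0.063). In this platform's naming, _x_at marks a probe set in which some probes also match other sequences, and _a_at one whose probes match several transcripts of the same gene. The part of such matches in the values of the main probe set was not tested. The groups were thus apart on the main probe set and overlapped on the other two.

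Agreement among probe sets was then counted over the array. Of the 193 genes past the threshold, 86 had a second probe set above the level, and that second probe set changed in the same direction in 80. Its change was at least 50% of the main one in 54 genes and under 25% in 19. For Plagl1 it was 15.6%, against a median of 69.6% over the 86 genes.

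**Figure D1:**
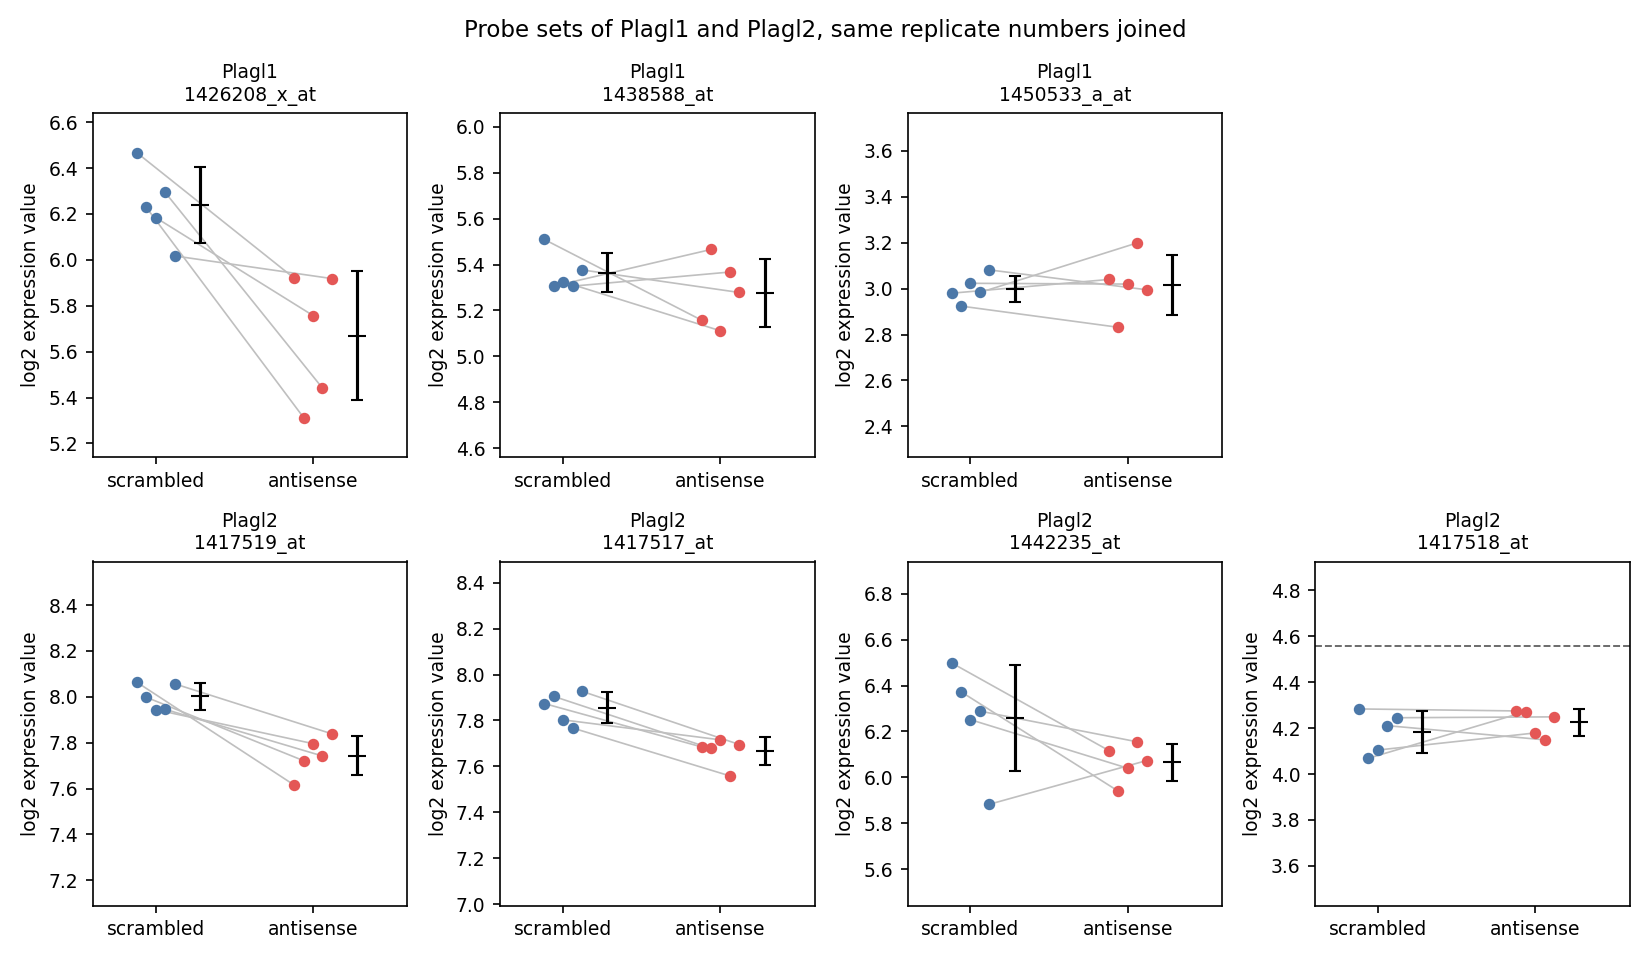
Log2 expression values of the 3 probe sets of Plagl1 (top) and the 4 of Plagl2 (bottom), 1 point per array, with scrambled and antisense arrays of the same replicate number joined by grey lines and the mean ± SD of 5 arrays in black. All panels span the same range of log2 units. The dashed line, where in view, is the level of 4.56. The groups are apart on the first Plagl1 probe set and on the first 2 of Plagl2, and they overlap on the others.

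Plagl2, a close relative of Plagl1 in the PLAG family of zinc finger factors and no member of the group, also fell. Its main probe set lay between 7.94 and 8.06 in the scrambled arrays and between 7.62 and 7.84 in the antisense arrays. No antisense array reached the lowest scrambled one. The change was -0.26 (SE 0.048, limma adjusted p = 0.019). The call was lost without antisense replicate 4 (adjusted p = 0.0526) and held without any other single array. The other 2 probe sets above the level had changes of -0.19 and -0.19, the groups were apart on the first of them, and the remaining one, under the level, was at 0.04. Plag1, the third gene of the family, lay under the level on both of its probe sets.

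Against the whole array, 1.53% of genes passed the limma threshold of an adjusted p of 0.05, 1.16% higher and 0.372% lower. Among the 7 members tested 1 passed, Plagl1, which was chosen for it, so nothing is read from that count. Of the other 6 members none passed with limma, and 1 of them, Igf2r, had an unadjusted p under 0.05, which 12.9% of all genes had. With the replicate number as a block 3.05% of all genes passed and none of the 6. The groups did not overlap for 3.92% of all genes and for none of these 6. Their median change was -0.01, beside 0.01 over all genes tested, with 3 members above 0 and 3 below. Over all probe sets above the level 0.686% passed. Of the 14 member probe sets among them other than those of Plagl1, none passed with limma or with the block, and 2 had an unadjusted p under 0.05, a share that was 11.2% over all probe sets. The 14 member probe sets other than those of Plagl1 all changed by less than 0.2.

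**Figure D2:**
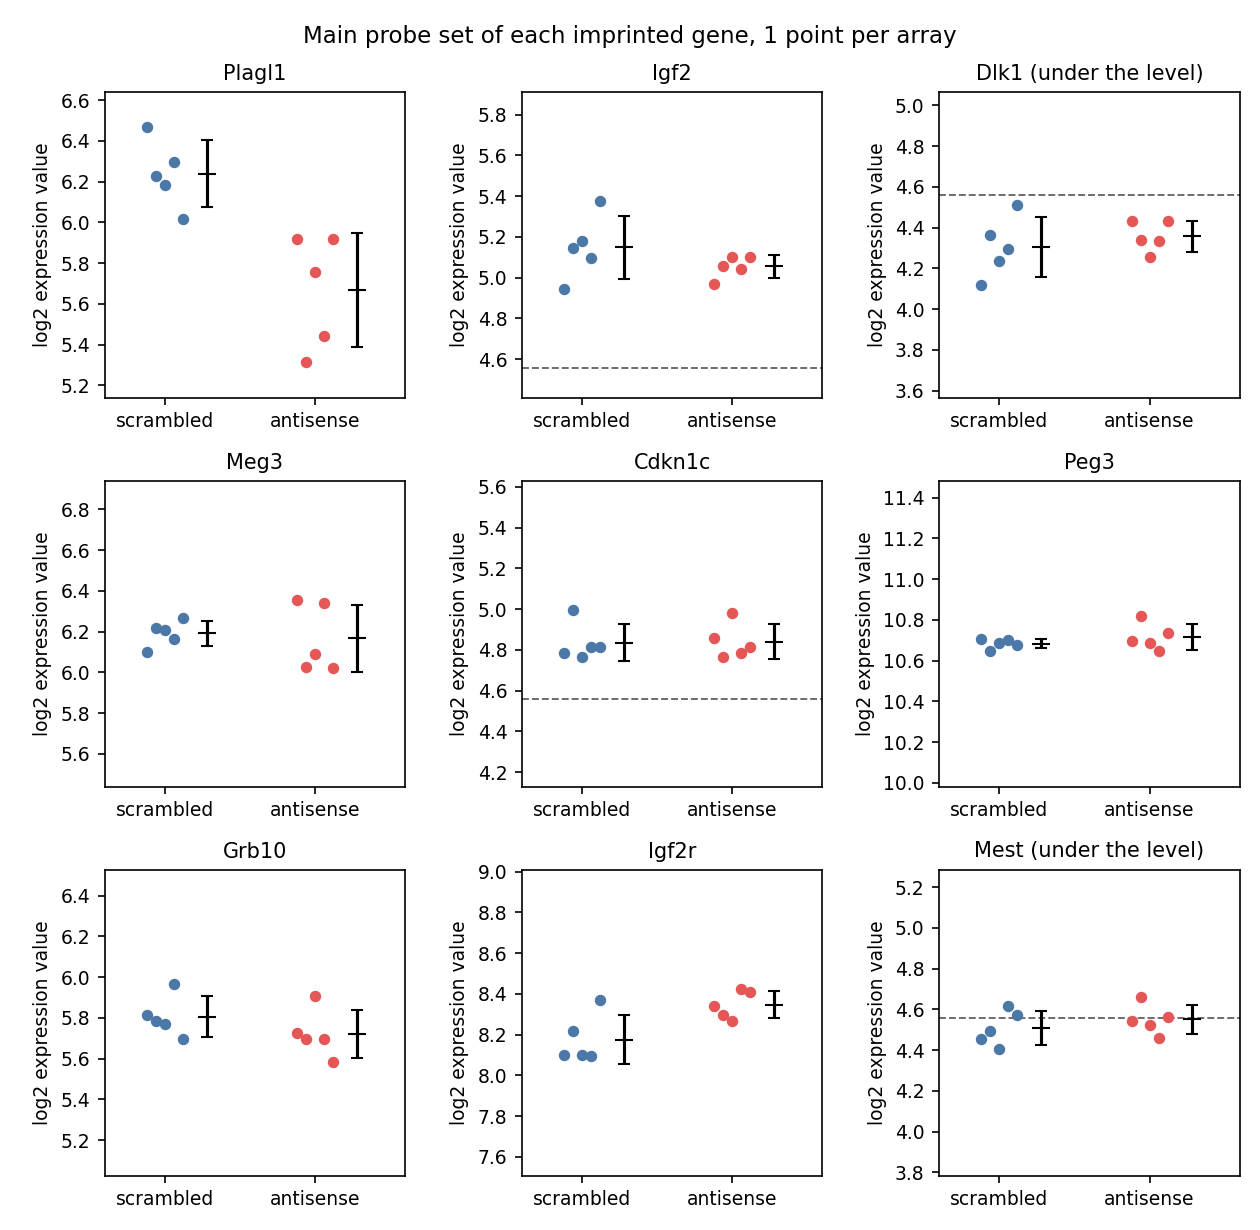
Log2 expression value of the main probe set of the 9 imprinted genes with one, 1 point per array, scrambled in blue and antisense in red, with the mean ± SD of 5 arrays in black. Panels span equal ranges of log2 units. The dashed line, where in view, is the level of 4.56. The antisense arrays lie below all scrambled arrays for Plagl1 alone among these 9 genes. Plagl1 was chosen for this decrease, so nothing is read from that, and the groups did not overlap for 3.92% of all genes.

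In the insulin-like growth factor axis, Igf2 encodes the fetal growth factor, Igf2r the receptor that clears it, and Grb10 an adaptor that dampens insulin and growth factor receptors. Igf2 was near the level, at 4.95, 5.14, 5.18, 5.10 and 5.38 in scrambled arrays and 4.97, 5.06, 5.10, 5.04 and 5.10 in antisense arrays. The groups overlapped, with the lowest and the highest value both in scrambled arrays. The change was -0.09 (SE 0.066, 95% interval -0.24 to 0.05, limma adjusted p = 0.625). The second Igf2 probe set lay under the level in all 10 arrays, at 2.83 to 3.30.

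On the main probe sets, Igf2r had the largest change among the other 6 members tested. It read 8.10, 8.22, 8.10, 8.09 and 8.37 in scrambled arrays and 8.34, 8.30, 8.27, 8.42 and 8.41 in antisense arrays. Only scrambled replicate 5 reached the antisense values, and the antisense array was the higher in all 5 same-numbered pairs, by 0.04 to 0.33. The change was 0.17 (SE 0.058, limma adjusted p = 0.203), with a 95% interval of 0.05 to 0.30 that is not adjusted for the number of genes. Without scrambled replicate 5 it was 0.22 and passed narrowly (adjusted p = 0.049), and in the other 9 fits with 1 array left out it did not. The second Igf2r probe set pointed the same way, at 0.08 (SE 0.060), with overlapping groups.

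Grb10 had 1 of 3 probe sets above the level. It read 5.81, 5.79, 5.77, 5.97 and 5.69 in scrambled arrays and 5.72, 5.70, 5.91, 5.70 and 5.58 in antisense arrays, a change of -0.08 (SE 0.063, 95% interval -0.22 to 0.05, adjusted p = 0.645). The groups overlapped.

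Dlk1 and Meg3 are neighbours in a shared imprinted region, where Dlk1, a membrane protein and a textbook marker of hepatoblasts, comes from the paternal copy and the noncoding RNA Meg3 from the maternal one. Both Dlk1 probe sets lay under the level in all 10 arrays. The higher ranged from 4.12 to 4.51, and its change of 0.05 (SE 0.069) was not tested. Meg3 had 11 probe sets, 6 of them above the level, with changes from -0.07 to 0.04, of which 4 were below 0. Its main probe set read 6.10, 6.22, 6.21, 6.16 and 6.27 in scrambled arrays and 6.35, 6.03, 6.09, 6.34 and 6.02 in antisense arrays. The antisense arrays lay on both sides of all scrambled ones, with replicates 1 and 4 highest. The change was -0.02 (SE 0.070, 95% interval -0.18 to 0.13, adjusted p = 0.938).

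Cdkn1c encodes p57, an inhibitor of cyclin-dependent kinases that halts the cell cycle. Its only probe set read 4.78, 4.99, 4.76, 4.82 and 4.82 in scrambled arrays and 4.86, 4.77, 4.98, 4.79 and 4.81 in antisense arrays. The groups covered nearly the same range, just above the level, and the change was 0.01 (SE 0.054, 95% interval -0.11 to 0.12, adjusted p = 0.982).

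Peg3, a paternally expressed zinc finger gene, had 3 probe sets above the level in every array and 2 under it. The main one read 10.70, 10.65, 10.69, 10.70 and 10.68 in scrambled arrays and 10.69, 10.82, 10.69, 10.65 and 10.73 in antisense arrays, a change of 0.03 (SE 0.040, 95% interval -0.05 to 0.12, limma adjusted p = 0.812). The groups overlapped. A second probe set of nearly the same mean read 10.49, 10.46, 10.71, 10.62 and 10.60 against 10.65, 10.89, 10.73, 10.73 and 10.77. Here only scrambled replicate 3 reached into the antisense range. The antisense array was the higher in all 5 pairs, and the change was 0.18 (SE 0.058, adjusted p = 0.222 over all probe sets in limma). The third was at 0.07, so all 3 pointed up with sizes that depended on the probe set. Mest, which encodes a hydrolase-like protein of fetal tissues, had a single probe set at 4.41 to 4.66, above the level in 4 of 10 arrays, with an untested change of 0.04 (SE 0.055).

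**Figure D3:**
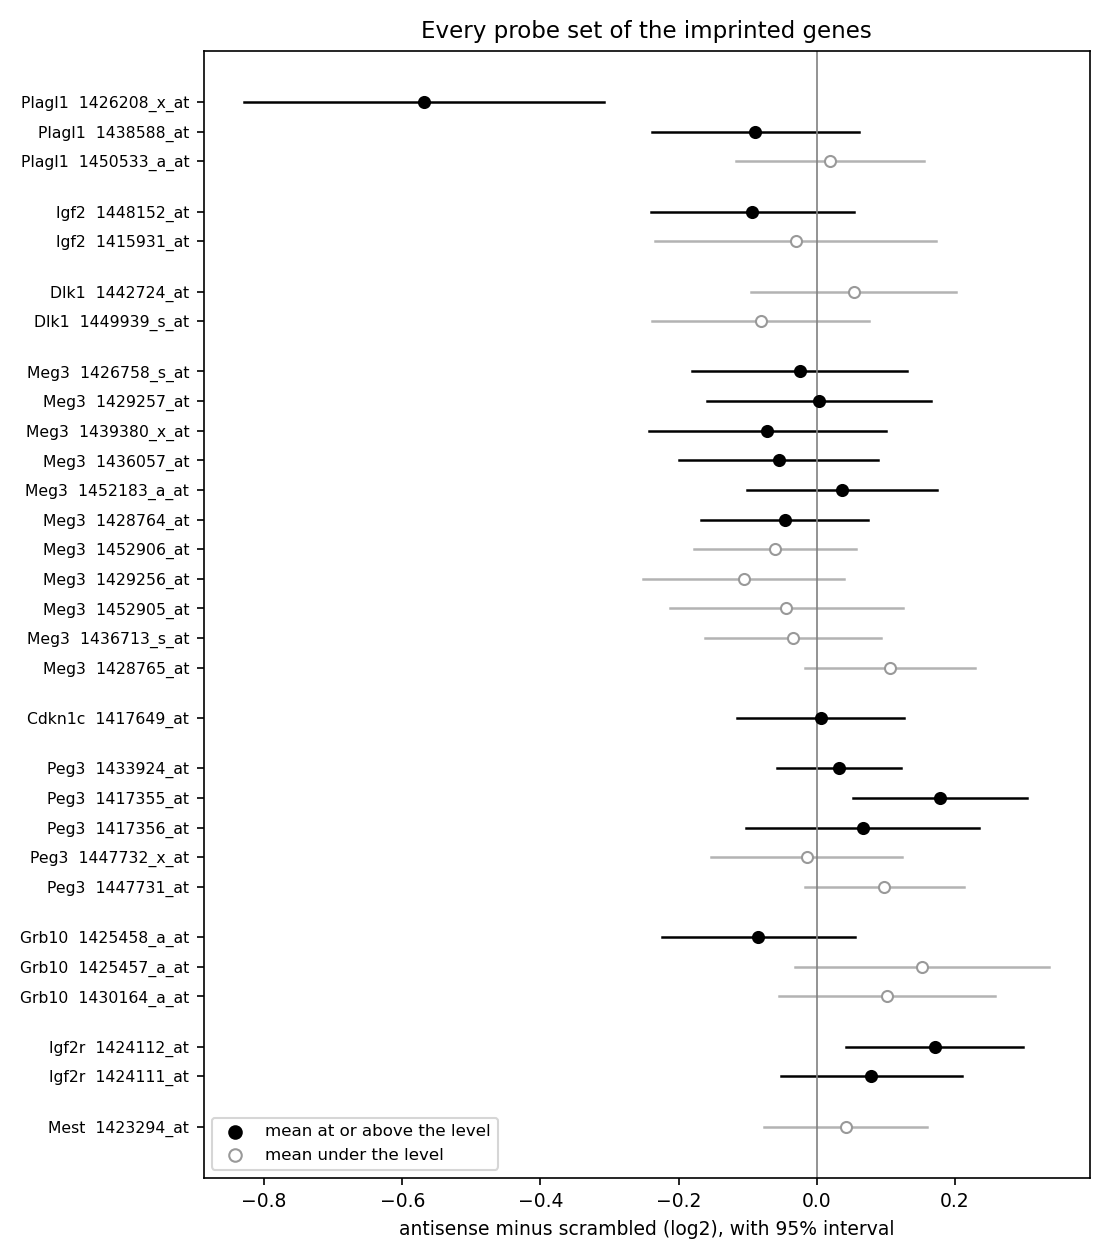
Change from scrambled to antisense on the log2 scale for all 30 probe sets of the imprinted genes, with 95% intervals not adjusted for the number of probe sets. Filled points have a mean at or above the level of 4.56 and open points lie under it. The first Plagl1 probe set, for whose decrease the gene was chosen, stands at -0.57, and every other filled point lies within 0.2 of 0.

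Wider lists of genes were read for the same contrast. Of 49 other imprinted genes 28 were tested and 17 lay under the level, among them Peg10, Gatm and Nnat. None passed with limma or with the replicate block, and 5 had an unadjusted p under 0.05, against 12.9% of all genes. Their median change was 0.00, with 16 above 0 and 12 below. Osbpl5, a lipid transfer protein gene from the same imprinted region as Cdkn1c, had a change of 0.28 (SE 0.068, adjusted p = 0.0615). It passed without antisense replicate 1 (adjusted p = 0.0224) or without scrambled replicate 2 (adjusted p = 0.0356), and with the stricter 60% filter (adjusted p = 0.0435). The apoptosis-linked gene Blcap had a change of 0.18 and the tetraspanin gene Cd81 of 0.13, and neither passed.

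Of 14 other genes of the insulin-like growth factor axis tested, none passed with limma, 4 had an unadjusted p under 0.05 (12.9% of all genes), and 1 rose with the replicate block (2% of all genes). That gene was Igfbp3, which encodes a growth factor carrier protein. Its scrambled mean was 8.99 ± 0.18 (SD, n = 5) and its antisense mean 9.31 ± 0.074 (SD, n = 5), with no overlap. The means differed by 0.31 (SE 0.076), with adjusted p = 0.0623 in limma, or 0.0295 once the replicate number was a block. It also passed without scrambled replicate 2 (adjusted p = 0.0452) and with the 60% filter (adjusted p = 0.0445). Its other probe set above the level was at 0.26. The carrier gene Igfbp4 had a change of 0.15 (adjusted p = 0.0742, or 0.0471 with the 60% filter), with all 6 of its probe sets above 0, and Irs1, an adaptor of the insulin receptor, one of 0.21 (adjusted p = 0.0858).

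The list of PLAG family genes and reported Plagl1 targets had 7 tested members. Of these 1 fell, Plagl2, and 1 rose, the cell cycle inhibitor gene Cdkn1a. Over all genes 0.372% fell and 1.16% rose. The list was chosen with earlier results of these data known, so nothing is read from that count. Cdkn1a went from 11.68 to 11.87, a change of 0.19 (SE 0.037, adjusted p = 0.0254), with no overlap between groups and its other probe set at 0.19. It is also a target of p53 and was already known from these arrays, so it is no independent evidence on Plagl1. Its call was lost in 6 of 10 fits with 1 array left out, those without antisense replicates 3, 4 or 5 or scrambled replicates 2, 3 or 4, with adjusted p up to 0.0724. Apaf1, a component of the apoptosome, had a change of 0.15 (adjusted p = 0.232). The rest of the list did not pass either, with Adcyap1r1 at 0.05, Slc2a4 at 0.07, Pparg at -0.07 and Tcf4 at -0.02.

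Among 5 cell cycle inhibitors tested, Cdkn1a, the same gene as in the list before, alone rose (1.16% of all genes) and none fell. Cdkn2d was at -0.10 and Cdkn1b at -0.05. None of 12 genes that maintain imprints, such as DNA methyltransferases and their partners, passed with limma or with the block. None had an unadjusted p under 0.05, which 12.9% of all genes had. Ctcf, which binds imprinting control regions, had a change of -0.11, Dppa3 of -0.10 and Dnmt3b of -0.08. Of the 12, 9 were below 0, beside 5669 of all 12633 genes, and this count was not tested. Of 8 genes around Dlk1, Notch and adipocyte regulators, none passed with limma or with the block, and 2 had an unadjusted p under 0.05 (12.9% of all genes). Sox9 was at 0.17 and passed with the 60% filter (adjusted p = 0.0437) or when its probe sets were averaged (adjusted p = 0.0266). The others with the smallest p were Cebpa at -0.25 and Pparg at -0.07.

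**Figure D4:**
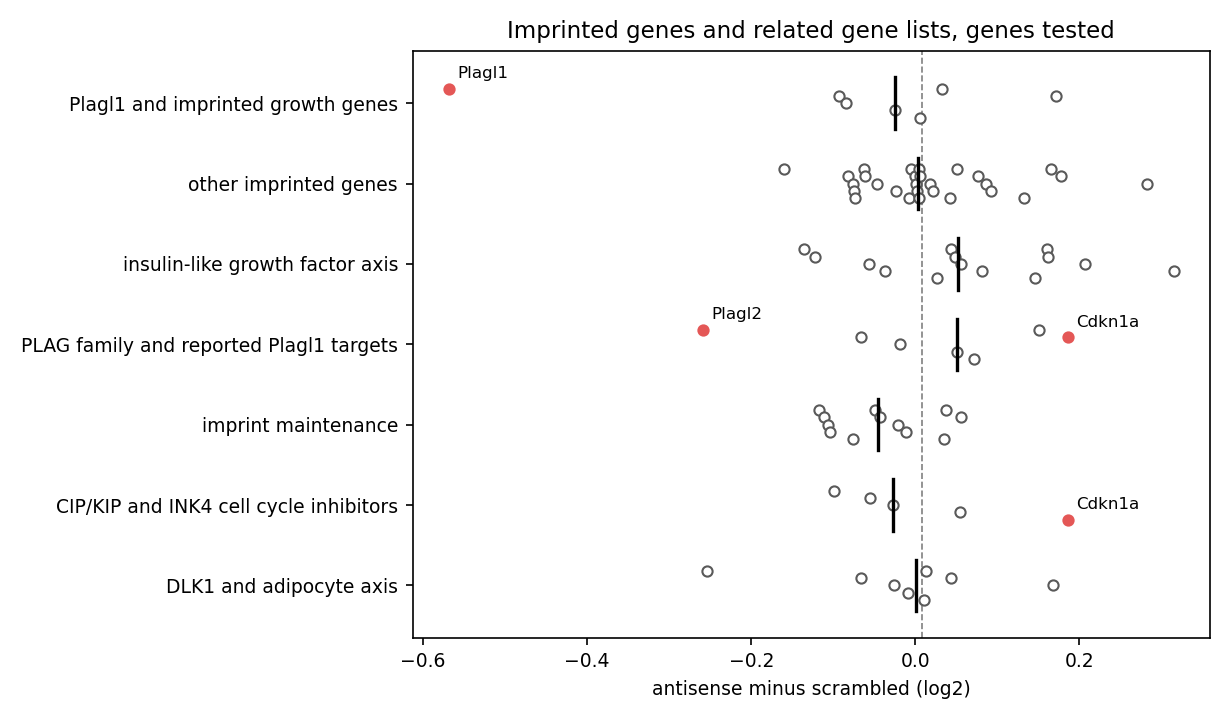
Change from scrambled to antisense on the log2 scale for each tested gene of the imprinted growth genes and 6 related lists, 1 point per gene, with genes past the limma threshold filled and named. Black bars are list medians, the dashed line is the median of 0.01 over all 12633 genes, and points are offset vertically for legibility. The lists lie around 0, with Plagl1, Plagl2 and Cdkn1a as the filled points. Plagl1 was chosen for its decrease, and the lists with earlier results of these data known. Nothing is therefore read from the number of filled points.

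The pattern of Plagl1 within the groups was set against all other genes by the deviation of each array from its group mean on the main probe sets. The closest of 12632 genes were Gabrp (Pearson r of 0.95 over 10 arrays), Snx10 (0.94), Sfi1 (0.93), Fbxw9 (0.93) and Ttc23 (0.93). Their changes between the groups ran in both directions, from -0.64 for Sfi1 and -0.20 for Gabrp to 0.17 for Fbxw9. None of the imprinted members was near Plagl1 in this order. Cdkn1c was at 0.26, Grb10 at 0.17, Meg3 at -0.11, Peg3 at -0.17, Igf2r at -0.31 and Igf2 at -0.50, while Plagl2 was at 0.05. These values describe 10 arrays that share group means and are given without a test. How high r would come out by chance for the closest of 12632 genes was not tested. The order also rests on the main Plagl1 probe set alone.

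Promoter windows of 300 bases, 250 before to 50 after a transcription start in RefSeq (build GRCm38.p6), were found for 8 members, 15 windows in all. H19 and Cdkn1c had no window and were not searched. The GC-rich palindrome GGGGCCCC, of the kind that Plagl1 protein is reported to bind, was searched for on both strands, which are the same for a palindrome. It occurred in 1 of the 15 windows, that of Peg3, and in 1.08% of 32851 windows of all genes. The stretch around it, at chr7:6730587-6730646 on the minus strand, is shown because Peg3 is the only member whose window holds the motif, which stands in capitals.
Peg3: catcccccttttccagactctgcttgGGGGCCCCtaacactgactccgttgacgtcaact
A match of these letters is a description and not a binding site. The Plagl1 window held 26 CpG dinucleotides, the sites of DNA methylation that carry imprints, against a median of 7 over all windows, and 12 of the 15 member windows were above that median.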

How the data were processed

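The authors deposited, for each of 10 arrays, a value per probe set that was taken as log2 because none exceeded 14.18. How the authors summarised, background-corrected and normalized them is not given in the sources used here. Platform annotation gave 1 symbol to each probe set used, updated by gene identifier to RefSeq symbols. The 932 probe sets annotated to more than 1 symbol were set aside, among them that of H19. Groups and replicate numbers came from the array titles.

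For each gene the probe set with the highest mean was kept, and genes under the level were left out. The antisense and scrambled arrays were fitted in limma 3.58.1 under R 4.3.3, with eBayes moderation, two-sided p-values and Benjamini-Hochberg adjustment over all 12633 genes, and again over 22744 probe sets. The replicate number was not a block in this fit, so its p-values take no account of pairing. The deviations of same-numbered arrays had correlations from 0.11 to 0.38, beside -0.31 to 0.23 for different numbers. Those of replicates 1, 3 and 4 lay within the latter range. Only those of replicates 2 and 5 lay above it. Same-numbered arrays were still taken as pairs in the fit with the block and in the pair comparisons. The pairing comes from the values only and is uncertain.

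Alternatives were the block, quantile normalization, median centring, other filters, the mean of probe sets and leaving out each array.

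All members with every probe set were named, with the 3 smallest p of each list and the 5 genes most like Plagl1. Members and lists were chosen with earlier results of these data known. On simulated data with 200 of 12633 genes changed, 56.8% of changes of 0.25 and 95.6% of 0.5 were recovered, and 5.41% of the calls were false. The simulated noise was independent between arrays and between genes, unlike deviations that arrays share, so recovery in the real arrays may differ. The number of arrays limits the precision. Figures used matplotlib 3.10.9 in Python 3.11.15.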

Additional observations from a re-analysis of the deposited data

Results flagged for a closer look

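In 1 of 32 groups of 5 values examined (16 member probe sets above the level, both groups), a single array stood apart from the other 4. It was Cdkn1c in scrambled replicate 2, at 4.99, where the other scrambled arrays lay between 4.76 and 4.82. The gap was 77.2% of the group's range. Chance sets apart about 1 in 20 such groups.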

How the results depend on the processing

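The number of genes past the threshold was 193. It was 385 with the replicate block, of which 184 were shared, and lay between 92 and 201 with 1 array left out. The members past the threshold were 1, or 0 with the 60% filter, whose level of 5.99 leaves Plagl1 out of the test. With 1 array left out they numbered 0 to 2, with 0 in 7 of 10 fits (without antisense replicates 2 to 4 or scrambled replicates 1 to 4). Plagl1 was chosen by its decrease, so nothing is read from its calls. Members other than Plagl1 numbered 0, or 0 to 1 with 1 array left out, the 1 being Igf2r. Member probe sets past the threshold were 0 in all, 1 with the replicate block, 1 after quantile normalization and 0 to 1 with 1 array left out, the 1 always being that of Plagl1 by which the gene was chosen, so nothing is read from it. In the fit with 1 probe set per gene, the replicate block changed no member's call. Meg3 (-0.0718 to 0.0111) and Cdkn1c (-0.0296 to 0.0456) changed sign with 1 array left out, as did the cell type markers Dcn (-0.0738 to 0.0294), Erg (-0.0167 to 0.139) and Kdr (-0.0574 to 0.0191). With the mean of its probe sets above the level Plagl1 changed by -0.33. Cdkn1a missed the threshold with no filter (adjusted p = 0.0534). The planned correlation of Igf2 with H19 and of Dlk1 with Meg3 was not run, since H19 and Dlk1 were not tested. Members under the level have no reliable change.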
